A study of Mus musculus with 2 samples.

Results

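Barcodes that held macrophage RNA and B cell RNA together made up 114 of the 2727 droplet barcodes kept from EGFP-sorted cells of mouse breast tumours. A member had at least 3 UMIs (unique molecular identifiers, counted RNA molecules) of Cd79a plus Cd79b and at least 5 UMIs of C1qa, C1qb, C1qc and Csf1r summed. Kept barcodes had at least 500 UMIs and at most 10% of them from mitochondrial genes. Members numbered 102 of 2135 kept barcodes in the Met-1 transplant, or 4.78% (exact Clopper-Pearson 95% interval 3.91 to 5.77%), and 12 of 592 in the PyMT tumour, or 2.03% (1.05 to 3.51%). They are set against barcodes of the same library that passed only the macrophage limit, which numbered 754 in the Met-1 transplant and 201 in the PyMT tumour, and against those that passed only the B cell limit, which numbered 254 and 31. The remaining 1025 and 348 kept barcodes passed neither limit.

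The study traced cells derived from adipocytes during breast tumour growth by single-cell RNA sequencing, with 1 library per tumour model. Both libraries came from C57BL/6 mice of the inAd-Chaser-mTmG genotype (Adiponectin-rtTA, TRE-Cre and a Rosa26 mT/mG reporter), in which doxycycline switches cells with an active adiponectin promoter and their descendants from membrane tdTomato to membrane EGFP, and both were sorted as EGFP-positive and tdTomato-negative. In the first library the tumour was implanted: the sample label names Met-1, while the design text names the EO771 line, and the label is followed here. In the second the tumour arose in mice crossed to PyMT mice. Sorted cells of both groups had therefore received the same label and gate. How many mice each library pooled, and their ages and doxycycline schedule, are not given in the sources used here. With 1 library per group no test between groups was possible, and barcodes of a library are not replicates. Intervals cover counting error only, or for medians the spread between barcodes of a library, and none covers the spread between mice.

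Macrophages are tissue phagocytes that depend on signalling through Csf1r, the receptor of colony stimulating factor, and in tumours many of them make the complement protein C1q and the lipid carrier apolipoprotein E. Cd79a and Cd79b form the signalling chains of the B cell receptor, and a mature B cell that has not yet switched isotype carries IgM and IgD on its surface with a kappa or a lambda light chain. After activation a B cell may enter a germinal centre, switch isotype or become an antibody-secreting plasma cell, each with its own marker genes. A barcode marks the content of a droplet, so the members are called barcodes here and not cells.

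The genes of the rule were far from their limits on the macrophage side. In the Met-1 transplant the 4 macrophage genes summed to 18, 116.5 and 458 UMIs (lowest, median, highest) in barcodes with both RNAs, against 5, 102 and 899 in macrophage-only barcodes and 0, 0 and 3 in B-only barcodes. Among all barcodes past the B cell limit, 141 had 0 of these UMIs, 90 had 1, 16 had 2 and 7 had 3, and the lowest member had 18. Cd79a plus Cd79b summed to 3, 14 and 74 UMIs in barcodes with both RNAs, against 3, 12 and 35 in B-only barcodes. On this side values lay on both sides of the limit: among barcodes past the macrophage limit, 72 had 1 UMI, 17 had 2, 5 had 3, 2 had 4 and 8 had 5. The lowest PyMT member had 22 macrophage UMIs while the highest B-only barcode had 1, and median Cd79 counts were 5.5 in members and 6 in B-only barcodes. Members were chosen by these counts, which are given as a description with no test.

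**Figure D1:**
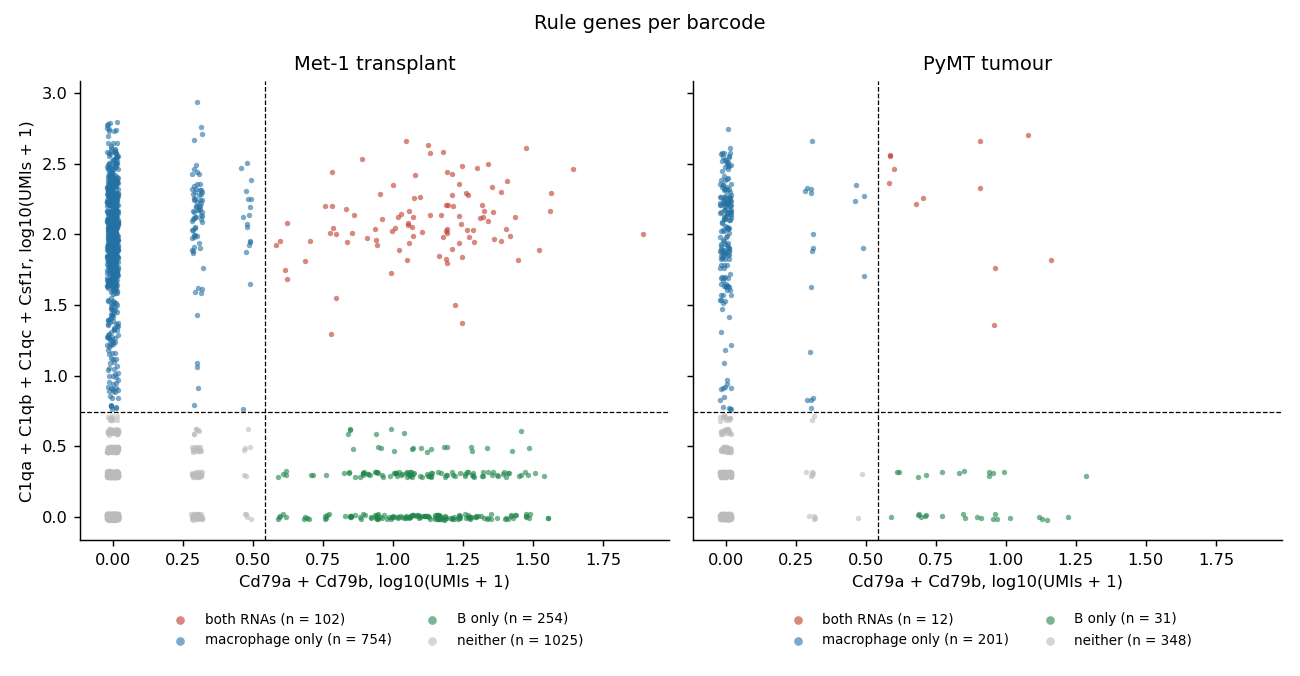
UMIs of the rule genes in each kept barcode, as log10(UMIs + 1), for Cd79a plus Cd79b (horizontal) and the 4 macrophage genes summed (vertical); each point is a barcode with a small random offset, and dashed lines mark the limits of 3 and 5 UMIs. In the Met-1 transplant no barcode past the B cell limit had between 4 and 17 macrophage UMIs, and the 102 members lie above that gap.

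The 6 markers given for these barcodes were all present, and 3 of them, Cd79a, C1qa and Csf1r, are genes of the rule. Igkc, the kappa light chain constant gene, was not used by the rule: it had 0, 21.5 and 115 UMIs (lowest, median, highest) in Met-1 members, 0, 0 and 7 in macrophage-only barcodes and 0, 23 and 119 in B-only barcodes. Fcmr, the Fc receptor for IgM, was found in 82 of 102 members, 6 of 754 macrophage-only and 205 of 254 B-only barcodes. Mzb1, a chaperone of the antibody secretory pathway that is also present in marginal zone B cells, was found in 58 members, 5 macrophage-only and 132 B-only barcodes. These 3 genes were found in members about as often as in B-only barcodes, at a larger total depth in members. Of 331 Met-1 barcodes that passed a T cell limit (at least 3 UMIs of Cd3d, Cd3e and Cd3g) and neither other limit, 5.14% had an Igkc UMI, 0.302% an Fcmr UMI and 0.906% an Mzb1 UMI, at a median of 8083 UMIs; the members' median was 11896.5. After thinning each barcode to 1000 UMIs, Igkc was seen in 76.5% of members, 1.22% of macrophage-only, 91.3% of B-only and 0.915% of T-limit barcodes.

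Barcodes with both RNAs had higher median depth than either kind of barcode they were set against. Intervals of the ratios below come from the spread of depth among members alone, with the comparator median held fixed. Median UMIs in the Met-1 transplant were 11896.5 in members, 7476 in macrophage-only and 3544.5 in B-only barcodes, so members stood 1.59 times (interval 1.38 to 1.80) and 3.36 times (2.91 to 3.80) higher. The medians of both comparators add up to 11020.5, and the members' median was 1.08 times that sum. PyMT medians were 15945.5, 8143 and 2105 UMIs in the same order. The members' median was 1.96 times the macrophage-only one (interval 0.760 to 2.88, which includes 1), 7.58 times the B-only one (2.94 to 11.1) and 1.56 times the sum of both. With higher limits the first 2 ratios were 1.20 and 4.12. The median number of genes detected was 3208.5 in Met-1 members, 2423.5 in macrophage-only and 1321 in B-only barcodes. Mitochondrial shares were intermediate, with medians of 2.72%, 1.55% and 4.19%. Depth overlapped widely: members ran between 2997 and 33056 UMIs, and only 2 of the 102 were among the 50 deepest kept barcodes of the library. Members needed minimum UMI counts of both RNAs, while each comparator had to stay under the limit of the other RNA, and such counts rise with depth. The part of this choice in the depth ratios was not tested.

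The doublet caller Scrublet, run within each library, called 20 of 2135 Met-1 barcodes: 4 members, 8 macrophage-only, 3 B-only and 5 that passed neither limit. Its median score was 0.029 in members, 0.0117 in macrophage-only and 0.00596 in B-only barcodes. For the PyMT tumour it called 0 of 592 barcodes, and the median scores were 0.00581, 0.00326 and 0.00173. Members had the highest median score and the highest median depth in both libraries, and the part of several cells in a droplet in the values that follow was not tested.

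To see how much of each RNA a barcode held, genes were taken that differed at least 10-fold in CPM (UMIs of a gene per 1e6 UMIs, summed over barcodes, with 10 added) between macrophage-only and B-only barcodes of the Met-1 transplant. The genes of the rule and the immunoglobulin genes were left out, which gave 145 macrophage-restricted and 52 B-restricted genes. A Met-1 member held 189, 1042.5 and 4537 UMIs (lowest, median, highest) of macrophage-restricted genes, against 38, 899 and 7983 in macrophage-only and 2, 13 and 376 in B-only barcodes. It held 0, 73.5 and 310 UMIs of B-restricted genes, against 0, 1 and 56 in macrophage-only and 18, 72.5 and 200 in B-only barcodes. The members' median of each RNA therefore lay close to that of the barcodes that held this RNA alone, 1.16 times it for macrophage genes and 1.01 times it for B cell genes. In the PyMT tumour, with the same gene sets, members had median UMIs of 1413.5 for macrophage genes and 42 for B cell genes; macrophage-only barcodes had 927 and 2, and B-only barcodes 9 and 43.

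**Figure D2:**
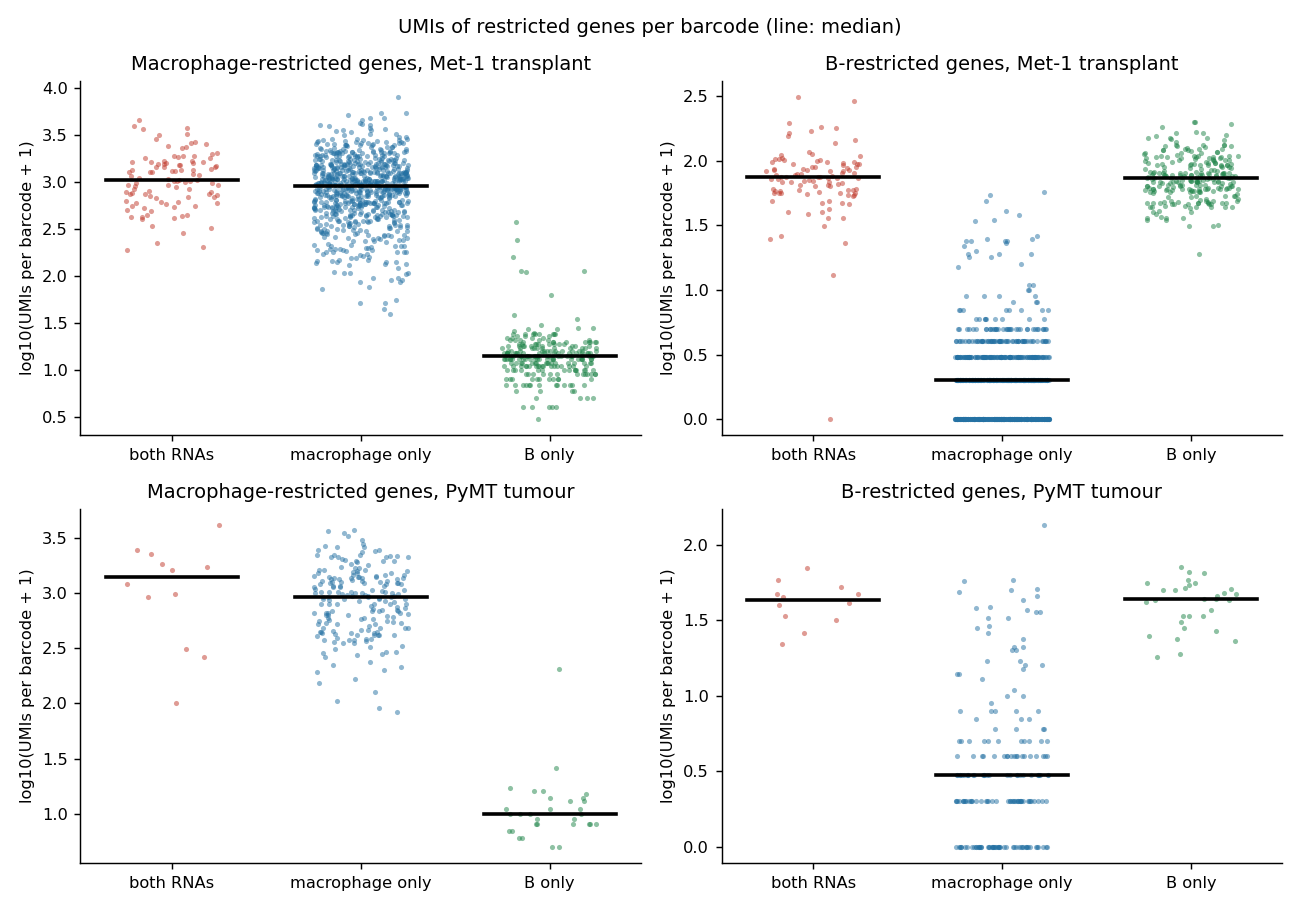
UMIs of macrophage-restricted genes (left) and B-restricted genes (right) per barcode, as log10(UMIs + 1), in the Met-1 transplant (top) and the PyMT tumour (bottom); points are barcodes and lines are medians. On the left, member and macrophage-only medians were 1042.5 and 899 in the Met-1 transplant and 1413.5 (interval 311 to 2282) and 927 in the PyMT tumour. On the right, member medians lie near those of B-only barcodes (73.5 and 72.5, then 42 and 43).

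Members differed among themselves in the balance of the 2 RNAs. B-restricted genes gave 0, 6.07 and 30.5% (lowest, median, highest) of the restricted UMIs of a Met-1 member, with 3.86% and 10.3% as quartiles; the medians were 0.104% in macrophage-only and 85.7% in B-only barcodes. Of the 102 members, 100 held at least as many B-restricted UMIs as the lowest B-only barcode, which had 18. One member had 0 Cd79a UMIs, 3 Cd79b UMIs, 0 Igkc UMIs and 0 B-restricted UMIs, so it passed the B cell limit on Cd79b alone. Another had 12 B-restricted UMIs at 2997 UMIs in all, the lowest depth of any member. Across the 102 members, macrophage-restricted and B-restricted UMIs had a Spearman correlation of 0.25, and total UMIs and the B-restricted share one of -0.37; total depth is part of all these measures. Each of the 12 PyMT members held between 21 and 69 B-restricted UMIs, all at or above the lowest B-only barcode (17), and between 101 and 4182 macrophage-restricted UMIs. These B-restricted counts overlapped other classes: PyMT macrophage-only barcodes had a median of 2 but reached 135, and barcodes past neither limit a median of 5 but reached 160. The B-restricted share of the PyMT members had a median of 2.77% and ran between 1.04 and 19.8%, and with higher limits on the rule genes, which leave 6 members, the median was 10.6%; the 3 highest shares, 19.8, 18.2 and 16.5%, belonged to the 3 shallowest members with 2735, 5538 and 6188 UMIs.

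The macrophage-restricted RNA in the members was that of Apoe-high macrophages, with most of the restricted genes in nearly the same proportions as in macrophage-only barcodes. RNA of the C1q genes and Csf1r was required by the rule in both classes. Apoe had 28, 234.5 and 1829 UMIs (lowest, median, highest) in Met-1 members and a median of 195.5 in macrophage-only and 2 in B-only barcodes. Adgre1, which encodes the macrophage surface protein F4/80, was found in 77 of 102 members, 580 of 754 macrophage-only and 2 of 254 B-only barcodes. Trem2, a lipid-sensing receptor of lipid-associated macrophages, had 83 members with a UMI, 530 macrophage-only and 4 B-only barcodes. The Fc receptor Fcgr1 was found in 78 of 102 members, 506 macrophage-only and 2 B-only barcodes. These counts of barcodes are not thinned, and members were the deeper class. The lipid-associated list of 12 genes, which holds Trem2, stood at 8458, 10496 and 468 CPM in members, macrophage-only and B-only barcodes. Its median log2 difference from the weighted sum described below was 0.03.

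Within the macrophage-restricted UMIs, 0 of 145 genes (0%) took at least a 2-fold higher share in members than in macrophage-only barcodes and 2 (1.38%) took at least a 2-fold lower one. The median log2 ratio over the 145 genes was -0.07 (UMIs per 1e5 restricted UMIs, with 10 added), and the quartiles were -0.22 and 0.02. The 2 lower genes were Cxcl10, an interferon-induced chemokine, and Ccl12, a monocyte chemoattractant. Cxcl10 had 83 UMIs summed over the 102 members and 1694 over the 754 macrophage-only barcodes, a 3.26-fold lower share (interval 2.61 to 4.11). Ccl12 had 82 and 1614, a 3.14-fold lower share (2.52 to 3.97). Both were carried by few barcodes: at least 1 Cxcl10 UMI was found in 22 members (21.6%) and 130 macrophage-only barcodes (17.2%), after thinning to 1000 UMIs in 4.90% and 9.24%, and the highest count was 18 in a member and 276 in a macrophage-only barcode. More than 10 Cxcl10 UMIs were found in 3 members and 37 macrophage-only barcodes, and 5 macrophage-only barcodes held 37.0% of that class's Cxcl10 UMIs. With every barcode weighted equally the log2 ratio was -1.09 for Cxcl10 (main -1.56) and -0.96 for Ccl12 (main -1.51). Mmp12, a macrophage elastase, was next in line at -0.94, with 192 and 2379 UMIs, and passed 2-fold at equal weights (-1.12), where Ccl12 did not, and at lower (-1.13) and higher limits (-1.08) on the rule genes.

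**Figure D3:**
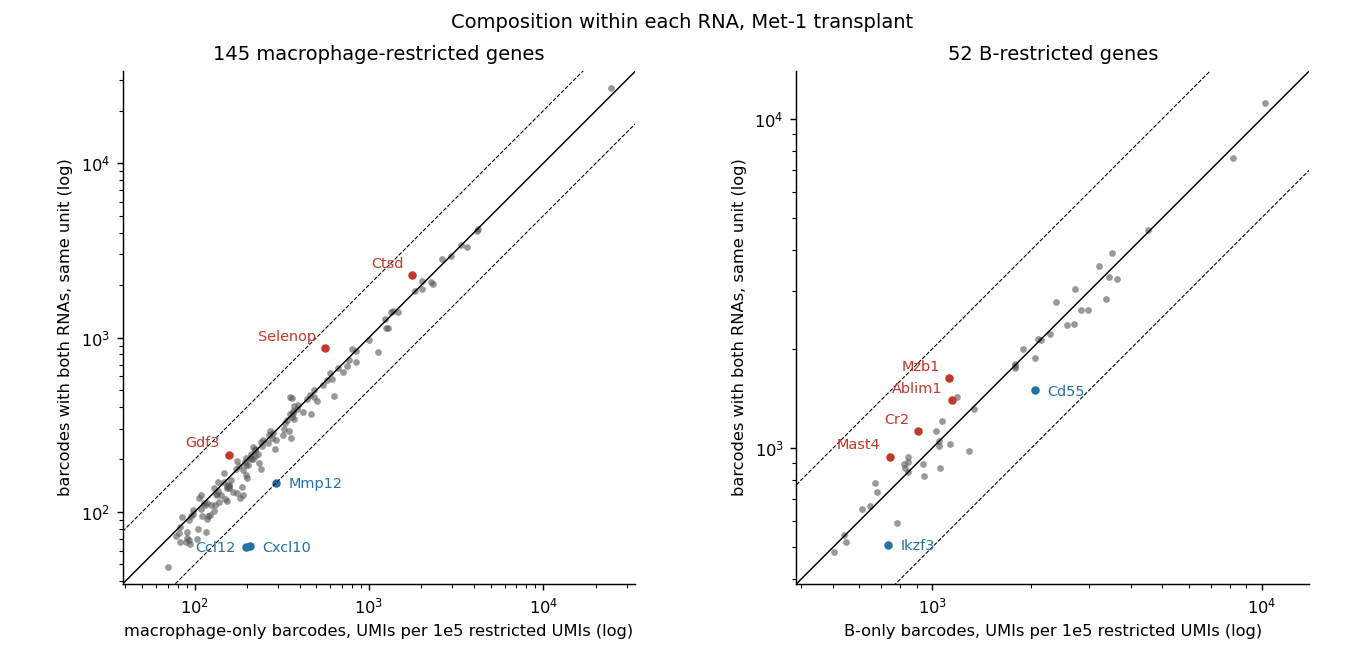
Share of each macrophage-restricted gene (left, 145 genes) and each B-restricted gene (right, 52 genes) in UMIs per 1e5 restricted UMIs on log axes, in Met-1 barcodes with both RNAs (vertical) against barcodes that passed only the matching limit (horizontal); the solid line is equality and dashed lines are 2-fold. Cxcl10 and Ccl12 are the points past 2-fold, both lower in barcodes with both RNAs; red names mark genes among the highest and blue names genes among the lowest.

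The genes with the highest shares in members over macrophage-only barcodes stayed under 2-fold. Selenop, a selenium transport protein, was first at a log2 ratio of 0.63 (1138 and 4594 UMIs, a 1.55-fold higher share, interval 1.45 to 1.66). Gdf3, a secreted growth factor of the TGF-beta family, followed at 0.41, Ctsd, a lysosomal protease, at 0.36, Timp2, an inhibitor of matrix proteases, at 0.36 and Trem2 at 0.32. Among the lowest after Mmp12 were the receptor genes Lilr4b (-0.56) and Lilrb4a (-0.51), the lectin-like receptor Klra2 (-0.55) and the C-type lectin Clec4a3 (-0.47).

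Lists of macrophage states place the members more closely. The monocyte list as a whole stood at 449 CPM in members, 432 CPM in macrophage-only and 931 CPM in B-only barcodes, led in members by Plac8 (222 UMIs in 66 members). Of its 10 genes 3 had no UMI in members: Ly6c2, Chil3 and Hp had 0 UMIs in the 102 members, which with a floor of 3 counts allows up to 2.94% of barcodes with a UMI each. Ccr2, the chemokine receptor of recruited monocytes, was found in 12 members. Macrophage-only barcodes had 126, 59 and 72 UMIs of Ly6c2, Chil3 and Hp, of which 5 barcodes held 82.5, 93.2 and 87.5%. Arg1, an enzyme of arginine breakdown in alternatively activated macrophages, likewise had 0 UMIs in members, against 151 in macrophage-only barcodes, 139 of them in 1 barcode. The resident-like list of 14 genes stood at 1205 CPM in members, 1158 CPM in macrophage-only and 68.4 CPM in B-only barcodes. Selenop gave 1138 of its 1638 UMIs in members. Of its other genes, Lyve1, Cd163 and Timd4 had 0 UMIs in members and in both comparators. Mrc1, the mannose receptor, had 32 UMIs in 21 members and 208 in macrophage-only barcodes. Inflammatory genes were present, and their list of 10 stood at 5906 CPM in members, 8660 CPM in macrophage-only and 310 CPM in B-only barcodes. The list's median log2 difference from the weighted sum described below was -0.26. Il1b, an inflammatory cytokine, stood at 1943 CPM in members and 2980 CPM in macrophage-only barcodes, and the chemokine Ccl4 at 2035 and 2591 CPM. As shares of macrophage-restricted UMIs their log2 ratios were -0.20 and 0.07. Those of Cxcl2 and Il1a were lower, at -0.43 and -0.28, and those of Ccl3 and Nlrp3 were 0.00 and 0.02. Genes of class II antigen presentation, which both cell types use, were high throughout: the invariant chain Cd74 had 28, 269 and 890 UMIs (lowest, median, highest) in members, a median of 163.5 in macrophage-only and of 65 in B-only barcodes.

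The B cell RNA in the members held IgM and IgD heavy chains, as in mature B cells. Ighm, the IgM heavy chain, was found in 102 of 102 members and 249 of 254 B-only barcodes, with a median of 7 UMIs in both; it was also found in 48.7% of macrophage-only and 59.5% of T-limit barcodes, so its presence alone does not mark a B cell in this library. Ighd, the IgD heavy chain, separated the classes better, with UMIs in 88 members (86.3%), 17 macrophage-only barcodes (2.25%), 235 B-only barcodes (92.5%) and 12.7% of T-limit barcodes. IgM and IgD UMIs stood together in 88 members, against 230 B-only barcodes. Switched heavy chains (IgG, IgA and IgE genes) summed to 9 UMIs in 3 members and 7 UMIs in 5 B-only barcodes. Of the 9, 8 were Ighg2b, which B-only barcodes held at 0 UMIs and macrophage-only barcodes at 33.

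Light chains followed the B-only barcodes as well. Of 89 members with at least 10 light chain UMIs, 82 had a kappa majority and 6 a lambda majority; of 230 such B-only barcodes, 208 had kappa and 20 lambda. The median kappa share per barcode was 85.2% in members and 83.3% in B-only barcodes. Iglc1, a lambda constant gene, had 91 UMIs in members and 389 in B-only barcodes, which relative to B-restricted UMIs was 1.76-fold lower in members (interval 1.40 to 2.24), carried by 21 members and 74 B-only barcodes. Immunoglobulin variable genes had 50 UMIs in all members and 117 in all B-only barcodes, and no barcode had the 10 needed to give a leading variable gene, so clonal relations among the members are not described.

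Within the B-restricted UMIs, 0 of 52 genes (0%) were 2-fold higher in members than in B-only barcodes and 0 (0%) were 2-fold lower, with a median log2 ratio of 0.00 and quartiles of -0.11 and 0.13. Mzb1 was highest at 0.53 (135 UMIs in members, 226 in B-only barcodes, a 1.45-fold higher share, interval 1.16 to 1.80), followed by the kinase gene Mast4 at 0.34, the complement receptor Cr2 at 0.31, the actin-binding Ablim1 at 0.29 and the GTPase gene Gimap1 at 0.26. Ikzf3, the lymphoid transcription factor Aiolos, was lowest at -0.52 (42 and 147 UMIs, a 1.44-fold lower share, interval 1.02 to 2.08). The complement regulator Cd55 at -0.45, Gimap3 at -0.40 and the B cell coactivator Pou2af1 at -0.28 were also among the lowest. All of these differences were under 2-fold, and several of these genes are shared with T cells: Gimap1, for example, had a UMI in 73.1% of T-limit barcodes.

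Genes of several B cell stages were then compared with the B-only barcodes. The IgE receptor Fcer2a was found in 69 of 102 members and 175 of 254 B-only barcodes, Cr2 in 50 and 90, the follicle-homing receptor Cxcr5 in 42 and 89, and Ccr7, the lymph node homing receptor, in 69 and 183. The naive or follicular list summed to 2116 CPM in members, 869 CPM in macrophage-only and 5731 CPM in B-only barcodes, and the marginal zone list to 839, 772 and 1037 CPM. CPM in members counts RNA of both types: B-restricted genes as a whole took 0.609% of member UMIs and 1.93% of B-only UMIs. Median log2 differences from the weighted sum described below were -0.16 for the naive or follicular list and -0.13 for the marginal zone list. Of the marginal zone list, Dtx1, a regulator of Notch signalling, had 23 UMIs in members and 31 in B-only barcodes, and Cd1d1, a lipid-presenting molecule, 13 and 20. The germinal centre list stood at 782 CPM in members, 1149 in macrophage-only and 95.4 in B-only barcodes, and Basp1, which macrophage-only barcodes held at 6885 UMIs, gave 947 of its 1063 UMIs in members. Of its other genes, Rgs13, a regulator of chemokine signalling, had 0 UMIs in members and in B-only barcodes; Bcl6, the germinal centre transcription factor, was found in 40 members, but macrophage-only barcodes held 258 of its UMIs against 66 in members and 34 in B-only barcodes. The plasma cell list stood at 472, 484 and 449 CPM in the 3 classes, led in members by Slamf7 (183 UMIs), Mzb1 (135) and Xbp1 (108). Of its other genes, Jchain, which joins antibody units, had 0 UMIs in all 3 classes, and Sdc1, the plasma cell surface proteoglycan, was found in 3 members. The immature or transitional list stood at 1428 CPM in members, 772 CPM in macrophage-only and 4024 CPM in B-only barcodes, led in members by Tmsb10. The median log2 difference of this list from the weighted sum was 0.13. Its gene Vpreb3, which is among the B-restricted genes, had 78 UMIs in members and 170 in B-only barcodes. Rag1, Rag2 and Dntt of the same list, which act in antibody gene rearrangement, had 0 UMIs in members and 1, 0 and 1 in B-only barcodes. Egr3, induced by antigen receptor signals, was found in 39 members (38.2%), 20 macrophage-only barcodes (2.65%) and 68 B-only barcodes (26.8%), but after thinning in 1.96, 0.136 and 9.92%.

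The whole transcriptome of the members was next set against a weighted sum of both comparators. The weights were taken from the restricted genes: macrophage-restricted genes took 0.750 of their macrophage-only share of all UMIs, and B-restricted genes 0.315 of their B-only share, which sum to 1.06. Of 9101 genes with at least 50 UMIs over the 3 classes, 8895 (97.7%) lay within 1.5-fold of the weighted sum in CPM with 10 added, and the median log2 difference was -0.09. One gene (0.011%) was at least 2-fold higher and 34 (0.374%) at least 2-fold lower. Because the weights sum to more than 1, a gene with equal CPM in all 3 classes falls below the weighted sum. The median and the balance of higher and lower genes are therefore partly set by the weights, which were fitted on these members. Adding 10 CPM also draws genes of low CPM towards equality. No gene (0% of 9101) was 2-fold above the higher of both comparators; with a pseudocount of 1 CPM in place of 10 there were 11. The weights in the PyMT tumour were 0.884 and 0.138, which sum to 1.02.

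The gene above the weighted sum was Npl, an enzyme of sialic acid breakdown, at a log2 difference of 1.04, with 34.6 CPM in members, 15.2 CPM in macrophage-only and 0.963 CPM in B-only barcodes. It was found in 31 members (30.4%) and 76 macrophage-only barcodes (10.1%), but after thinning to 1000 UMIs in 0% and 0.951%, which is too near 1 UMI to read. In the PyMT tumour Npl was found in 4 of 12 members, 31 of 201 macrophage-only and 0 of 31 B-only barcodes. The next highest were Gdf15, a stress-induced cytokine (183 UMIs in members, 542 in macrophage-only, 1 in B-only barcodes), the growth factor binding protein Igfbp3 and Islr.

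**Figure D4:**
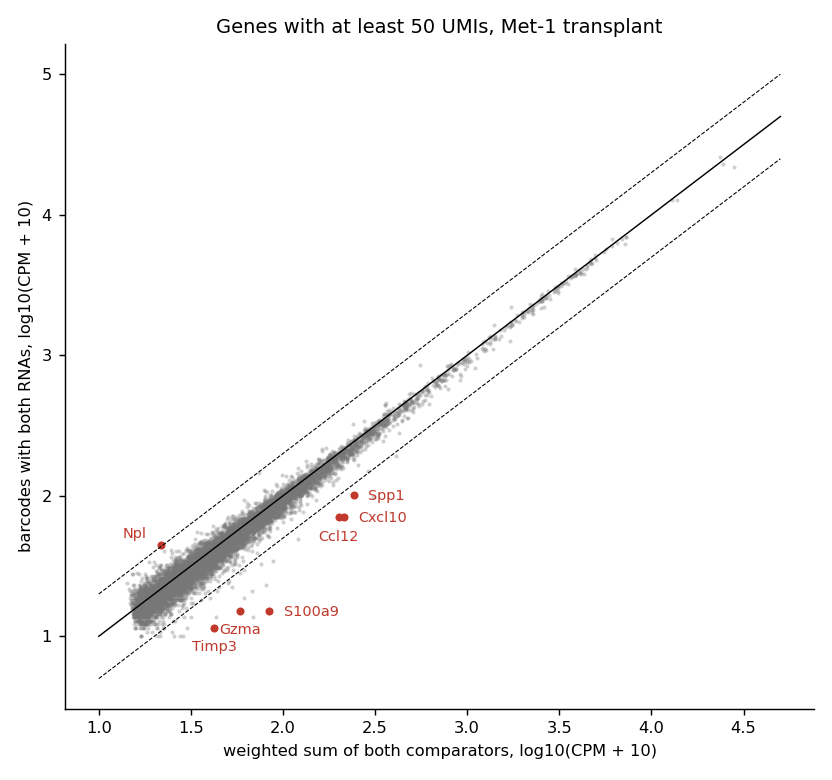
CPM of 9101 genes in Met-1 barcodes with both RNAs (vertical) against the weighted sum of macrophage-only and B-only barcodes (horizontal), both as log10(CPM + 10); the solid line is equality and dashed lines are 2-fold. Most genes (97.7%) lie within 1.5-fold of the line, Npl lies above it by 2-fold, and the named genes below it include S100a9, Gzma and Cxcl10.

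Among the genes below the weighted sum were markers of neutrophils and cytotoxic lymphocytes, held by few comparator barcodes. Of 9101 genes, 8 (0.0879%) were 2-fold below both comparators: the neutrophil genes S100a9, S100a8 and Retnlg, the cytotoxic granule genes Gzma and Gzmc, Ly6c2, the chemokine Ccl5 and Timp3, a protease inhibitor. S100a9 had 7 UMIs in 6 members, 310 UMIs in 37 macrophage-only barcodes and 124 UMIs in 11 B-only barcodes, and 5 barcodes held 89.7% of the macrophage-only and 95.2% of the B-only UMIs. Gzma had 7, 213 and 78 UMIs, and 5 barcodes held 91.1 and 92.3% of the comparators' UMIs. Spp1, which encodes osteopontin, was also lower than the weighted sum (log2 difference -1.26), with 124 UMIs in members and 1881 in macrophage-only barcodes, 1016 of them in 1 barcode. These counts moved with the settings: with a pseudocount of 1 in place of 10, 212 genes were 2-fold below the weighted sum and 61 below both comparators, without the 20 Scrublet calls 110 and 51, and with every barcode weighted equally 15 and 4.

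Marker lists of other cell types gave mixed levels in the members. T cell markers gave 229 UMIs in Met-1 members (168.5 CPM), 73.3 CPM in macrophage-only and 643 CPM in B-only barcodes, with at most 76 UMIs in a member. Of these, 74 UMIs in members and 188 of 667 in B-only barcodes were Cd2, which is also among the B-restricted genes. Cd3e was found in 3 members. Neutrophil markers gave 50.8, 150.4 and 244.7 CPM, and mast cell markers 1 UMI in members. The conventional dendritic list gave 212.7 CPM in members, 19.7 in macrophage-only and 668 in B-only barcodes, and 274 of its 289 UMIs in members were Ccr7. The plasmacytoid dendritic list gave 232.5, 271.5 and 183 CPM, with Tcf4 at 278 of 316 UMIs in members. Fibroblast markers gave 760 CPM in members, 793 in macrophage-only and 518 in B-only barcodes, with a median of 1 UMI per member but 778 in 1 member. Cell cycle genes of the G2 and M phases stood at 636, 781 and 366 CPM, and Mki67, a marker of proliferation, was found in 8 members, 73 macrophage-only and 3 B-only barcodes. EGFP, the lineage label used in the sort, had 2, 42 and 194 UMIs (lowest, median, highest) in members, with medians of 23 in macrophage-only and 11 in B-only barcodes; in CPM it stood at 3764, 4164 and 3226. EGFP medians in the PyMT tumour were 26, 20 and 0 UMIs.

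In the Met-1 transplant a larger share of barcodes past the B cell limit than of those past the T cell limit also passed the macrophage limit. Of 356 barcodes past the B cell limit, 102 (28.7%, interval 24.0 to 33.7%) also passed the macrophage limit, while of 349 barcodes past the T cell limit 10 did (2.87%, 1.38 to 5.21%). The barcodes past only the T cell limit of this pair were deeper, with a median of 8143 UMIs, than those past only the B cell limit, with 3544.5. In the PyMT tumour 12 of 43 B cell barcodes (27.9%, 15.3 to 43.7%) and 10 of 53 T cell barcodes (18.9%, 9.44 to 32.0%) passed the macrophage limit, and these intervals overlap. B and T cell limits were passed together by 10 Met-1 barcodes and 1 PyMT barcode, and all 3 limits by 2 and 1. No cell barcode occurred in both libraries. The shares use limits of 3 UMIs on 2 B cell genes and on 3 T cell genes, so their heights depend on these genes' levels. The B cell shares count the members that the rule chose, so they are a description, and no test was made.

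**Figure D5:**
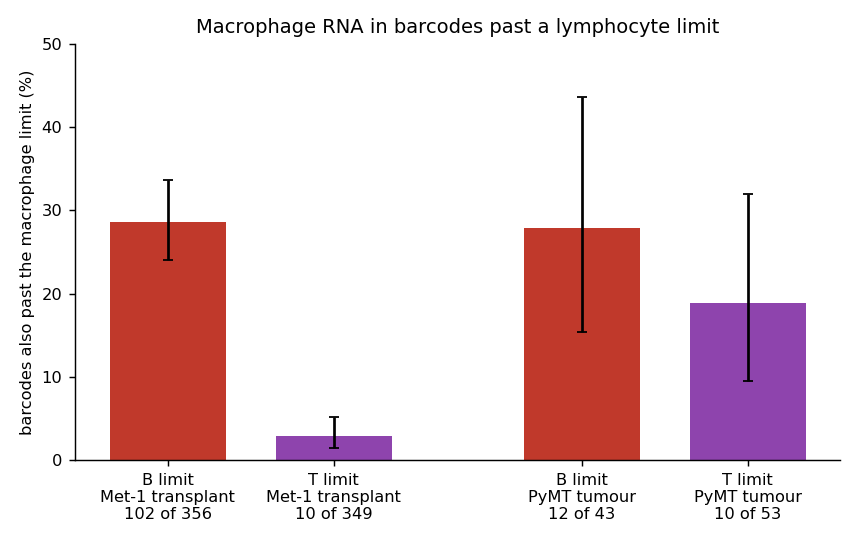
Percentage of barcodes past the B cell limit or past the T cell limit that also passed the macrophage limit, in each library, with the counts under each bar; error bars are exact Clopper-Pearson 95% intervals, which cover counting error only. In the Met-1 transplant the B cell bar (28.7%) stands above the T cell bar (2.87%), while in the PyMT tumour the intervals of both bars overlap.

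The 12 PyMT members carried the same kinds of genes. Ebf1, a transcription factor of the B cell lineage, was found in 11 of 12 members, 18 of 201 macrophage-only and 31 of 31 B-only barcodes, and Ms4a1, which encodes CD20, in 6, 3 and 26. Ighd was found in 9 members, 8 macrophage-only and 15 B-only barcodes, and Mzb1 in 6, 0 and 18. Apoe had a median of 230 UMIs in members, 179 in macrophage-only and 2 in B-only barcodes, and Selenop, found in all 12 members, medians of 8, 6 and 0. Cd74 had a median of 593 UMIs in members, 225 in macrophage-only and 60 in B-only barcodes. For the 3 genes lowest in Met-1 members, Cxcl10 had here a log2 share ratio of -0.24 (36 UMIs in members, 511 in macrophage-only barcodes), Ccl12 one of 0.16 (58 and 617) and Mmp12 one of 0.35 (32 and 295). Whether these ratios differ between the tumours was not tested.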

How the data were processed

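Sorted cells gave 1 library per tumour model, and barcodes were compared only within a library. The deposited values are whole-number UMI counts per gene and barcode, for which the submitters' processing notes name Cell Ranger 3.1.0 and the mm10 build; the annotation release and whether barcodes had been filtered for cells are not given in the sources used here. The tables list 31054 gene rows, among them EGFP, and 2451 and 619 barcodes; kept barcodes hold 20172911 and 4309454 UMIs. Barcodes under 500 UMIs or over 10% mitochondrial UMIs were left out (316 and 27, of which 1 Met-1 barcode passed both limits). Scrublet (scanpy 1.11.5, expected rate 0.8% per 1000 barcodes) scored doublets; none was removed. Counts were summed per class; genes needed 50 UMIs over the 3 classes and were called at 2-fold after adding 10 (per 1e6 UMIs, or per 1e5 restricted UMIs). Intervals are 95%: Clopper-Pearson for shares (at 0, the limit is 3 counts of the total), conditional binomial for share ratios and order statistics for medians. Depth ratio intervals are the interval of the members' median divided by the comparator median. Thinning to 1000 UMIs kept 102, 736 and 252 Met-1 members, macrophage-only and B-only barcodes. Members and gene lists were chosen with earlier results of these data known. Named genes are the rule genes and given markers, immunoglobulin constant genes, the 8 highest and 8 lowest restricted genes on each side, the 8 highest over both comparators and the 3 members of each of 36 lists with the most UMIs; other list members, the genes apart from the weighted sum, and that comparison itself were chosen after values were seen. Some genes that this rule selects are not reported here. One list gene was not found by its symbol. The ratio step was tested on simulated data. Python 3.11.15, numpy 2.4.6, scipy 1.17.1 and pandas 2.3.3 were used.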

Additional observations from a re-analysis of the deposited data

Results flagged for a closer look

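In 7 of 144 macrophage-restricted genes with at least 50 UMIs in each tumour, the share in barcodes with both RNAs over macrophage-only barcodes was on opposite sides of 1 in the 2 tumours, with intervals that leave out 1 in each; the difference between tumours itself was not tested, and each tumour is 1 library. In 6 genes both intervals lay on the same side of 1, and 64 of the 144 ratios were on the same side whatever their interval. The lysosomal protease Ctsd had a ratio of 1.28 in the Met-1 transplant and 0.626 in the PyMT tumour, and the receptor Trem2 1.25 and 0.719. The other 5 genes ran the other way: Fcer1g, an Fc receptor chain, 0.907 and 1.11, Tyrobp, a signalling adaptor, 0.942 and 1.23, the inhibitory receptor Lair1 0.856 and 1.41, Basp1, a membrane-associated protein, 0.862 and 1.39, and Mpeg1, which encodes perforin-2, 0.896 and 1.57. The PyMT ratios rest on 12 members, among which these genes had between 44 and 512 UMIs.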

How the results depend on the processing

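No paired analysis was possible because each group is 1 library and no replicate numbers exist. Of 172 values under other settings, 154 stayed near the main value (within its interval, or for counts of genes within 1.5 times) and 18 moved, and no log2 ratio changed sign; the cause of the moves was not tested. Lower limits (Cd79 at least 2, macrophage genes at least 3 UMIs) gave 5.95% members in the Met-1 transplant (main 4.78%) and 184 genes apart from the weighted sum (main 35) with 39 below both comparators (main 8), and Ccl12 then had a log2 ratio of -1.14. Higher limits (6 and 10 UMIs) gave 1.01% members in the PyMT tumour (main 2.03%). Requiring 20-fold restriction left 1 macrophage-restricted gene apart of 53. A pseudocount of 1 gave 11 genes above both comparators (main 0), 231 apart from the weighted sum and 61 below both. A minimum of 20 UMIs per gene gave 1 gene above both. Leaving out Scrublet calls gave 111 genes apart from the weighted sum and 51 below both. Comparators with 0 UMIs of the other rule genes gave 23 and 3, and equal weights per barcode 16 and 4. The B-restricted count stayed at 0 under every setting run. Depth limits genes under about 50 UMIs and all values of the 12 PyMT members, and the spread between mice is unknown.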
